A study of Mus musculus with 6 samples.

Results

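Mitochondrial ribosomal proteins are the proteins of the ribosome that works inside mitochondria, and their genes were taken as every row whose symbol begins with MRPL (large subunit) or MRPS (small subunit) followed by a digit. This gave 77 of the 23282 rows, 48 with an Mrpl and 29 with an Mrps symbol. The libraries came from an astrocyte line of mouse brain labelled Ink4a -/- and called Ink4a/Arf-/- in the study's text, which lacks the locus of both Ink4a and Arf, and control and JAG1 cells share this deletion. The 3 control libraries were made from cells that received the vector pcDNA3.1-puro with no insert, and the 3 JAG1 libraries from cells that received pcDNA3.1-JAG1-puro by transfection, which carries JAG1, a ligand of NOTCH receptors. For the control libraries the labels further name a genotype WT, which was read as without the JAG1 vector. It is not stated whether each library stands for a transfection or culture of its own, so p-values measure the spread between these libraries, which may be technical.

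The mitochondrial ribosome translates the few messenger RNAs that mitochondrial DNA encodes, all for subunits of the respiratory chain and of ATP synthase. Its ribosomal RNAs are made in the mitochondrion, whereas each of its proteins is encoded in the nucleus, made in the cytosol and imported. Some of these proteins descend from bacterial ribosomal proteins, and others are found only in mitochondrial ribosomes. The large subunit joins the amino acids into a chain, and the small subunit binds the messenger RNA and reads its codons.

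The promoters of genes for mitochondrial proteins are known to carry binding sequences of NRF1, of ETS factors such as GABPA and of YY1, transcription factors of mitochondrial biogenesis. The RefSeq promoter windows of the assembly GRCm38.p6 run from 250 bases before an annotated start to 50 bases after it. They numbered 74 and covered 68 of the 77 genes, some with more than 1 window. A window need not lie at a gene's outermost start. That of Mrpl36 begins at base 73330759, past the outermost start of the gene at 73328503. On either strand, GCGCA and GCGC with any 1 base between them (NRF1) stood in the windows of 13 of the 68 genes (19.1%), against 5.19% of the 27025 genes of the table. CCGGAAGT (ETS) stood in 12 of them (17.6%), against 4.31%, and AAGATGGC (YY1) also in 12 (17.6%), against 3.19%. At least 1 of the 3 stood in 34 of the 68 (50.0%), against 11.7% of all genes of the table. Those 27025 genes were not limited to genes tested in these libraries, so the sets are unlike. The shares among the genes tested were not counted. A match describes the letters only and does not show that a factor binds. The windows of 3 genes that rose in the JAG1 libraries and of 2 that fell are printed 5′ to 3′ on the strand of the gene, with the matches in capitals, because the same letters stand in both kinds:
Mrpl36, higher, chr13:73330759-73331058, + strand, YY1 letters read on the other strand: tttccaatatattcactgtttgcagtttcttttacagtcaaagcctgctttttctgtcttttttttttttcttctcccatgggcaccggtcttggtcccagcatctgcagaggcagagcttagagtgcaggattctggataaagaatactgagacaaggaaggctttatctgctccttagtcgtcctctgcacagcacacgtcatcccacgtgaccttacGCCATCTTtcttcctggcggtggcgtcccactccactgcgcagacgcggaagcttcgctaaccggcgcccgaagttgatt
Mrpl43, higher, chr19:45006393-45006692, - strand, ETS letters: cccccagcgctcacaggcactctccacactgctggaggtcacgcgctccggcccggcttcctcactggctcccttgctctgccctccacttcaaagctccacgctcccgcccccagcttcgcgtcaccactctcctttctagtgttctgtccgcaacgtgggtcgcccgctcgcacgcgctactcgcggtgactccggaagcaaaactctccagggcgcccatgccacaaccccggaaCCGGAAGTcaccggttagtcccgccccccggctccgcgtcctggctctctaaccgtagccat
Mrps26, higher, chr2:130563507-130563806, + strand, ETS letters read on the other strand and then 2 overlapping NRF1 matches: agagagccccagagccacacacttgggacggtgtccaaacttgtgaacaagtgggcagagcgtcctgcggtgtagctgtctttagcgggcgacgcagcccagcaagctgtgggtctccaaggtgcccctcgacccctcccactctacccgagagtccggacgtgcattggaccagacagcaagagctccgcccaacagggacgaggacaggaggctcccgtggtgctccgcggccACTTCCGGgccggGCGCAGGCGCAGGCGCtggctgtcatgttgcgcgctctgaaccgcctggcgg
Mrpl52, lower, chr14:54426659-54426958, + strand, ETS letters read on the other strand: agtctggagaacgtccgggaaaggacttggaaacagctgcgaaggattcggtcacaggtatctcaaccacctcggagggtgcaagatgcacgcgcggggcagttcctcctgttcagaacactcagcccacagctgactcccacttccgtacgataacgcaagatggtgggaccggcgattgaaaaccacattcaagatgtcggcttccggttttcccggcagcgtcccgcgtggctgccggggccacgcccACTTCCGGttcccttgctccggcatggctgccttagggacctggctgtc
Mrpl32, lower, chr13:14612988-14613287, - strand, YY1 letters read on the other strand and then NRF1 letters: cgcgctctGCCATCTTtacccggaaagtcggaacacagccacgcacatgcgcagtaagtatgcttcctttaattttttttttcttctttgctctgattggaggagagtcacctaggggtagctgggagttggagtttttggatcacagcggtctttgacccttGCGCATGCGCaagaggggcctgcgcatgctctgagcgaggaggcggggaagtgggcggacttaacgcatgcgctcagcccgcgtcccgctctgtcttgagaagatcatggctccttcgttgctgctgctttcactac

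The libraries held 14341634 to 20489062 reads counted on genes, sequenced from the 3' end of polyadenylated RNA (QuantSeq). Levels are in CPM, reads per 1000000 counted reads after TMM scaling, which corrects for differences in library composition, with the SD over 3 libraries. Jag1, read at the 3' end of the mouse gene, was at 10.3 ± 1.18 CPM in the control libraries and 14.2 ± 0.862 CPM in the JAG1 libraries (log2 fold change 0.46, SE 0.11, adjusted p = 0.00446), and whether reads of the vector fall on that row was not tested. Cdkn2a, which encodes both Ink4a and Arf, had 0 to 5 reads in each library. The astrocyte label rests on few markers, since Gfap, Aqp4, Slc1a3 and Slc1a2 had at most 3 reads in every library, and 6 of the 7 astrocyte markers tested, Sox9 (log2 fold change -3.33) among them, were lower in the JAG1 libraries. The summed CPM of all 11 markers was 3270 to 3750 in the control and 3340 to 3410 in the JAG1 libraries, nearly all of it from Vim (log2 fold change 0.05, adjusted p = 0.496). The other 10 summed to 403 to 453 CPM in the control and 158 to 169 CPM in the JAG1 libraries. Markers of fibroblasts summed to 238 to 244 CPM in the control and 152 to 176 CPM in the JAG1 libraries (2 of 4 lower, with Lum at 0 in all), and those of neurons to 27.3 to 28.4 and 50.8 to 52.9 CPM (1 of 5 higher and 1 lower, with Rbfox3, Snap25 and Syt1 at or near 0). Markers of microglia, oligodendrocytes and endothelial cells summed to under 4 CPM in every library. The part of these markers in the results was not tested. In bulk RNA, fewer cells of a kind cannot be told apart from less RNA per cell.

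JAG1 and control libraries were compared to ask how the genes of the mitochondrial ribosome stood after JAG1 was introduced. All 77 genes passed the filter on low counts. At an adjusted p under 0.05, 29 were higher in the JAG1 libraries, 10 were lower and 38 did not pass the test. In the whole fit, 55.1% of the 11712 genes tested passed, 27.4% as higher and 27.7% as lower, against 37.7% and 13.0% of the mitochondrial ribosomal protein genes. The share that passed in either direction, 50.6%, was thus near the background, and the split between higher and lower was not. The median log2 fold change was 0.12, beside 0.00 over all genes tested. Among the 8765 genes within the same range of mean CPM, 5.78 to 1010, 29.5% were higher and 27.3% lower. These shares are descriptions, and no test was made over the list.

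The changes were small. Log2 fold changes ran from -0.49 (Mrpl13) to 1.04 (Mrps28), with an SD of 0.30 over the 77 genes, beside 1.27 over all genes tested and 0.86 over those in the same range of CPM. Mrps28 was the only one of the 77 to pass the test with a change of at least 2-fold, which 13.9% of all genes tested and 7.70% of those in the same range did. At a limit of 1.5-fold, 7 of the 77 were higher (Mrps28, Mrpl36, Mrpl21, Mrps34, Mrpl53, Mrpl24 and Mrpl43) and 0 lower in edgeR's test, beside 11.9% and 14.6% of all genes. Since no fitted fall reached 1.5-fold, the 0 holds at any p, and without the fold limit 10 were lower. For 38 of the 77 genes the lowest JAG1 library exceeded the highest control library, and for 14 the reverse held, where 31.1% and 30.9% of all genes tested did. In the remaining 25 genes the groups overlapped.

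**Figure D1:**
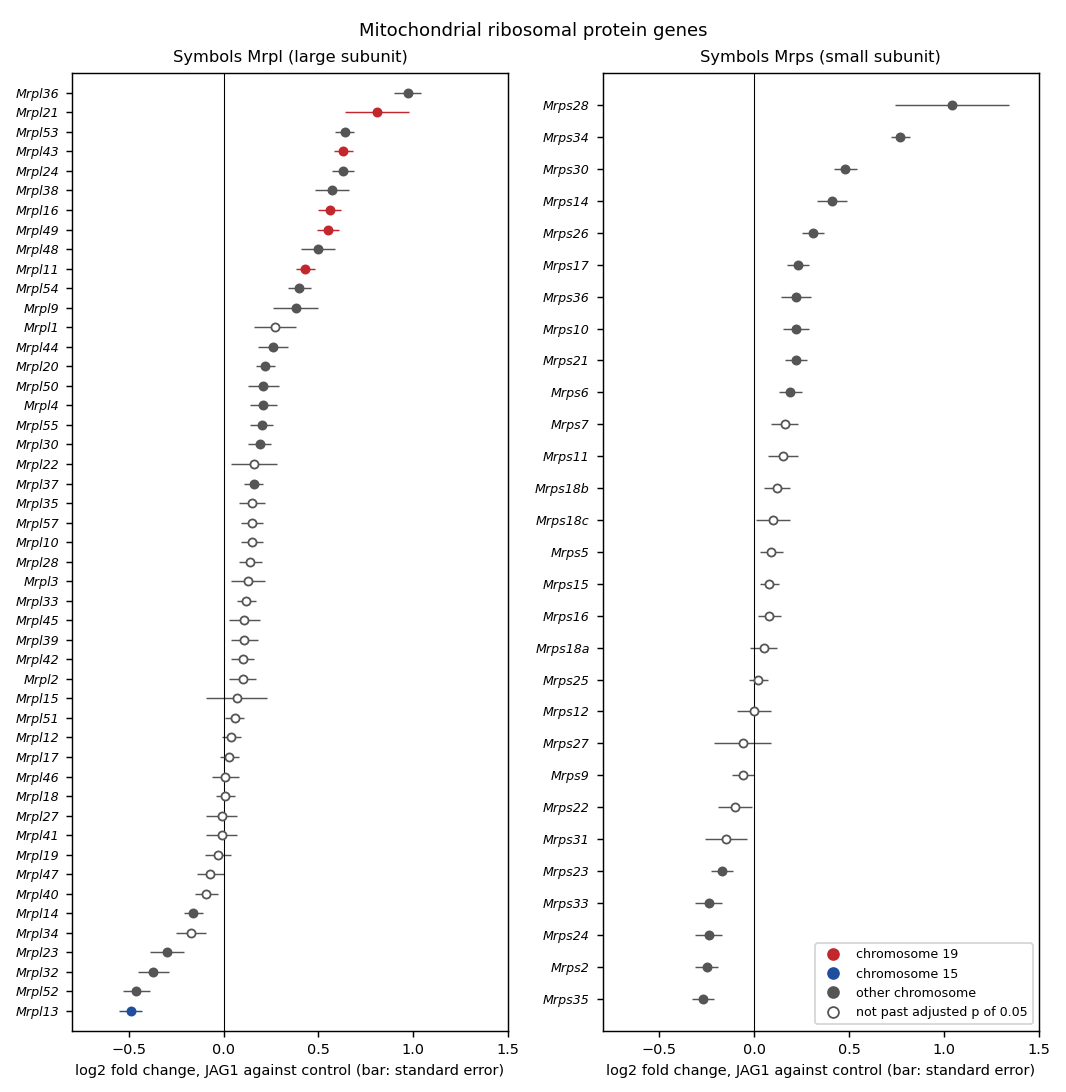
Log2 fold change of JAG1 against control libraries for each of the 77 mitochondrial ribosomal protein genes (x axis), Mrpl symbols on the left and Mrps symbols on the right, with bars for the standard error and open circles for genes that did not pass an adjusted p of 0.05. Of the called genes, 29 lie right of the zero line and 10 left of it, all 5 genes of chromosome 19 (red) being on the right and the 1 gene of chromosome 15 (blue) at the bottom left.

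By symbol, 19 of the 48 large subunit genes were higher and 5 lower, and the median of the log2 fold changes was 0.14. Of the 29 small subunit genes, 10 rose and 5 fell (median 0.09). Over all genes tested, 27.4% were higher and 27.7% lower. The difference between the subunits was not tested. Symbols and places in the ribosome differ for 3 genes. The proteins of Mrps18a and Mrps30 sit in the large subunit, and Mrps36 is now known as a component of the 2-oxoglutarate dehydrogenase complex, an enzyme of the citric acid cycle. By place in the ribosome, 20 of 50 large subunit genes were higher and 5 lower, and 8 of 26 small subunit genes were higher and 5 lower (medians 0.14 and 0.09).

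The large subunit gene with the largest rise was Mrpl36, which encodes a very short protein with a bacterial counterpart. It was at 33.7, 29.7 and 34.5 CPM in the control libraries and at 64.1, 61.2 and 66.6 CPM in the JAG1 libraries. The groups were far apart, with a log2 fold change of 0.97 (SE 0.07, adjusted p = 9.03e-07 in edgeR's quasi-likelihood test with Benjamini-Hochberg adjustment, as for all adjusted p given here unless another tool is named). Mrpl24, whose bacterial counterpart starts the assembly of the large subunit, rose from 53.0 ± 2.28 to 82.3 ± 1.69 CPM, a log2 fold change of 0.63 (adjusted p = 5.25e-06). Exons of Mrpl24 share 594 bases with Rrnad1 on the other strand, and whether the counting used the strand is not stated in the sources used here. Mrpl53, a protein found only in mitochondrial ribosomes, was at 272, 278 and 264 CPM in the control and at 428, 399 and 442 CPM in the JAG1 libraries. All JAG1 libraries of Mrpl53 were higher (log2 fold change 0.64, SE 0.05, adjusted p = 1.6e-06), but 695 bases of its exons also belong to Gm42688 on the same strand, so that reads of these genes cannot be separated here.

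Mrpl21 and Mrpl43, the other large subunit genes among the 5 largest rises, lie on chromosome 19. Mrpl21 was among the rows with the fewest reads, at 3.51, 5.32 and 5.07 CPM in the control and at 7.28, 8.46 and 8.56 CPM in the JAG1 libraries. Its groups did not overlap (log2 fold change 0.81, SE 0.17, adjusted p = 0.00171). Mrpl43 was at 125, 125 and 117 CPM against 190, 187 and 191 CPM, a log2 fold change of 0.63 (SE 0.05, adjusted p = 1.41e-06), with 385 bases of its exons shared with Twnk, the gene of the mitochondrial DNA helicase, on the other strand.

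In the other direction, Mrpl13, the gene of a large subunit protein with a bacterial counterpart, had the largest fall of all 77 genes. Its control libraries were at 88.3, 94.9 and 84.2 CPM and its JAG1 libraries at 61.5, 63.4 and 64.9 CPM. The groups did not overlap (log2 fold change -0.49, SE 0.06, adjusted p = 5.62e-05). Exons of Mrpl13 share 330 bases with Mtbp on the other strand. Mrpl52, found only in mitochondrial ribosomes, was at 146, 136 and 132 CPM in the control and at 93.6, 110 and 98.8 CPM in the JAG1 libraries, a log2 fold change of -0.46 (SE 0.07, adjusted p = 0.000184). Mrpl32, whose precursor is cut by the m-AAA protease of the inner membrane before it joins the ribosome, was at 50.7, 54.5 and 59.7 CPM against 39.7, 42.6 and 45.2 CPM. Each JAG1 library of Mrpl32 was below each control library (log2 fold change -0.37, SE 0.08, adjusted p = 0.00216).

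Mrpl23 and Mrpl14 completed the 5 large subunit genes that fell, with calls that were lost when some libraries were left out. Mrpl23, whose bacterial counterpart lines the exit of the tunnel through which the new chain leaves, was at 24.7, 22.5 and 21.7 CPM against 17.3 to 19.6 CPM (log2 fold change -0.30, adjusted p = 0.0143). Without JAG1 replicate 2 it had a log2 fold change of -0.25 and an adjusted p of 0.0592. Mrpl14, at the face of the large subunit that meets the small one, went from 127 ± 4.57 to 114 ± 2.19 CPM (log2 fold change -0.16, adjusted p = 0.0268), and its adjusted p was 0.07 without control replicate 1, 0.0949 without JAG1 replicate 1 and 0.0558 without JAG1 replicate 2.

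Among the small subunit symbols, Mrps28, a counterpart of bacterial S1, had the largest log2 fold change of all, but its control libraries differed widely. They stood at 11.3, 28.6 and 38.1 CPM, and the JAG1 libraries at 47.4, 55.5 and 57.6 CPM. The highest control library of Mrps28 was 3.39 times the lowest, and all were below the JAG1 libraries. Its log2 fold change was 1.04 (SE 0.30, adjusted p = 0.0118), and 0.68 without control replicate 1 (adjusted p = 3.71e-05). DESeq2 gave the same fold change with an adjusted p of 0.0628. The low value of Mrps28 in control replicate 1 was not alone. Of the 7809 genes tested with a mean of at least 10 CPM, 70 had their lowest control value in that library and at least 2 times as much in the highest control library. For each of the other 5 libraries, set against the others of its group in the same way, the number was 0 to 8. Mrps28 was the only one of the 74 mitochondrial ribosomal protein genes with that mean among them.

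Mrps34 rose without such a spread. A small subunit protein found only in mitochondria, in which mutations cause Leigh syndrome in people, it had 55.4, 56.0 and 55.4 CPM in the control libraries and 95.5, 94.9 and 94.4 CPM in the JAG1 libraries. The range within either group was under 2 CPM, and the log2 fold change was 0.77 (SE 0.05, adjusted p = 4.67e-07). Mrps14, with a bacterial counterpart, was at 38.9, 36.0 and 43.6 CPM against 49.2, 56.3 and 52.5 CPM, a log2 fold change of 0.41 (SE 0.08, adjusted p = 0.00156). Mrps26, found only in mitochondria, went from 38.5 ± 1.19 to 47.7 ± 1.19 CPM (log2 fold change 0.31, adjusted p = 0.00192), again with no overlap.

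The small subunit genes that fell had log2 fold changes of -0.17 to -0.27. Mrps35, found only in mitochondria, was at 146, 135 and 130 CPM in the control and at 112, 120 and 108 CPM in the JAG1 libraries, a log2 fold change of -0.27 (SE 0.06, adjusted p = 0.00358). Mrps2, with a bacterial counterpart, was at 129, 126 and 120 CPM against 111, 102 and 102 CPM, a log2 fold change of -0.25 (SE 0.06, adjusted p = 0.00327). The groups of both genes stood apart. Mrps24 had a log2 fold change of -0.24 (adjusted p = 0.0117) and Mrps33 also of -0.24 (adjusted p = 0.0144), and without JAG1 replicate 1 their adjusted p was 0.0533 and 0.0736. Mrps23, at -0.17, was the weakest call (adjusted p = 0.039), with adjusted p up to 0.13, without JAG1 replicate 1, and above 0.05 under 7 of the 15 alternatives.

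**Figure D2:**
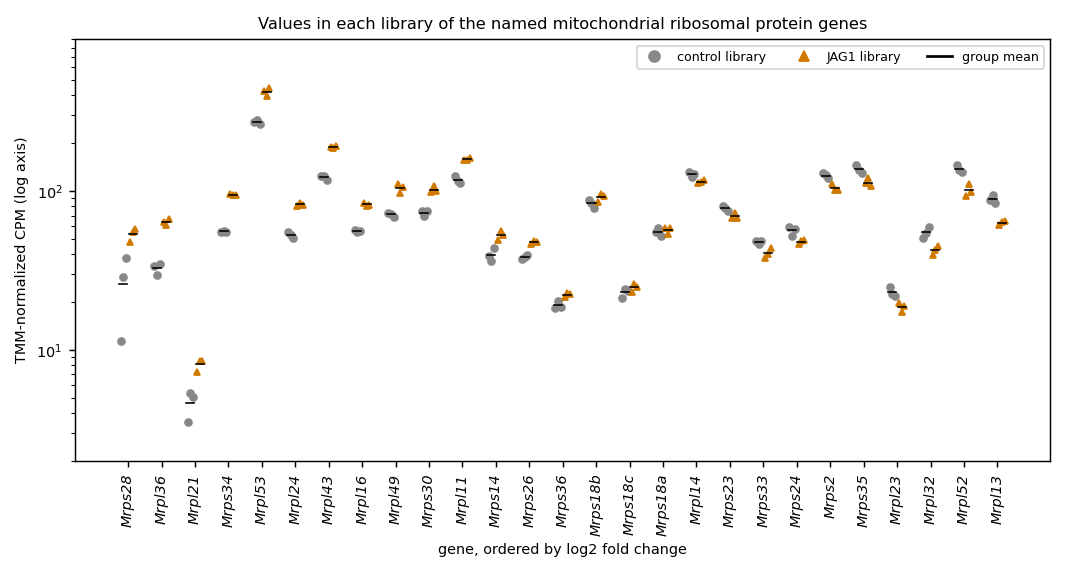
TMM-normalized CPM (log axis) in each library of the named mitochondrial ribosomal protein genes, ordered from the largest rise to the largest fall, with grey circles for the 3 control libraries, orange triangles for the 3 JAG1 libraries and black lines for group means. The groups are apart on both sides of the plot and overlap for Mrps18a, Mrps18b and Mrps18c, and the low circle of Mrps28 at 11.3 CPM is control replicate 1.

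Mrps18a, Mrps18b and Mrps18c are paralogs related to bacterial S18, and a ribosome holds the protein of each in a place of its own. None of them passed the test, and the groups overlapped in each. Mrps18a was at 54.9 ± 3.1 CPM in the control and 56.8 ± 2.79 CPM in the JAG1 libraries (log2 fold change 0.05, SE 0.07, adjusted p = 0.567). Mrps18b was at 83.6 ± 4.72 and 91.1 ± 4.99 CPM (log2 fold change 0.12, SE 0.07, adjusted p = 0.133), and Mrps18c at 21.1 to 24.2 and 23.2 to 26.1 CPM (log2 fold change 0.10, SE 0.09, adjusted p = 0.338). Mrps30, which has an Mrps symbol and a place in the large subunit, rose from 73.2 ± 2.99 to 102 ± 4.22 CPM (log2 fold change 0.48, adjusted p = 4.58e-05). Its exons share 601 bases with B430218F22Rik on the other strand. Mrps36, the gene of the dehydrogenase component, was at 19.1 ± 1.12 and 22.2 ± 0.717 CPM (log2 fold change 0.22, adjusted p = 0.0419), and its adjusted p was above 0.05 under 8 of the 15 alternatives.

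Genes were also grouped by whether the protein's place in the ribosome has a bacterial counterpart, so that Mrps18c counts as having one and Mrps18a and Mrps18b count as found only in mitochondria. Large subunit proteins with a bacterial counterpart had 10 of 30 genes called as higher, 4 as lower and a median of 0.14 on the log2 scale. Those found only in mitochondria had 10 of 20 higher and 1, Mrpl52, lower (median 0.16). In the small subunit, 6 of 16 genes with a bacterial counterpart were higher and 2 lower (median 0.13). The 10 small subunit genes found only in mitochondria had a median of -0.08, with 2 higher (Mrps34 and Mrps26), 3 lower (Mrps35, Mrps33 and Mrps23) and 5 not called. Without JAG1 replicate 1 the last group had 2 higher and 1 lower, as Mrps33 and Mrps23 lost their calls. The difference between the groups was not tested.

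The position of the genes moved with the result. All 5 genes on chromosome 19 were higher, namely Mrpl21, Mrpl43, Mrpl16, Mrpl49 and Mrpl11, with a median of 0.56 on the log2 scale. On that chromosome 74.2% of the 422 genes tested were higher and 7.35% lower, and their median was 0.61. Mrpl13 is the only one of the 77 genes on chromosome 15, where 75.4% of the 459 genes tested were lower and 6.97% higher and the median was -0.53. The values of these 6 genes were thus close to the middle of their chromosomes, and a change of the gene itself cannot be told apart from the shift of its chromosome. Off both chromosomes, 24 of 71 genes rose (33.8%) and 9 fell (12.7%), and their median was 0.11, where 26.5% of all genes tested were higher and 26.5% lower. The median of the large subunit became 0.12 (14 of 42 higher, 4 lower), and the small subunit, which has no gene on either chromosome, stayed at 0.09.

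The 3 genes of chromosome 19 not yet described were Mrpl16, Mrpl49 and Mrpl11. Mrpl11, whose bacterial counterpart forms the base of the stalk that elongation factors touch, was at 124, 116 and 112 CPM in the control and at 156, 157 and 161 CPM in the JAG1 libraries (log2 fold change 0.43, SE 0.05, adjusted p = 4.83e-05). Mrpl16, with a bacterial counterpart, went from 55.9 ± 0.988 to 82.4 ± 1.61 CPM (log2 fold change 0.56, adjusted p = 8.79e-06). Mrpl49, found only in mitochondria, went from 71.3 ± 2.11 to 104 ± 6.51 CPM (log2 fold change 0.55, adjusted p = 2.27e-05). No JAG1 library of these genes reached down to a control library.

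**Figure D3:**
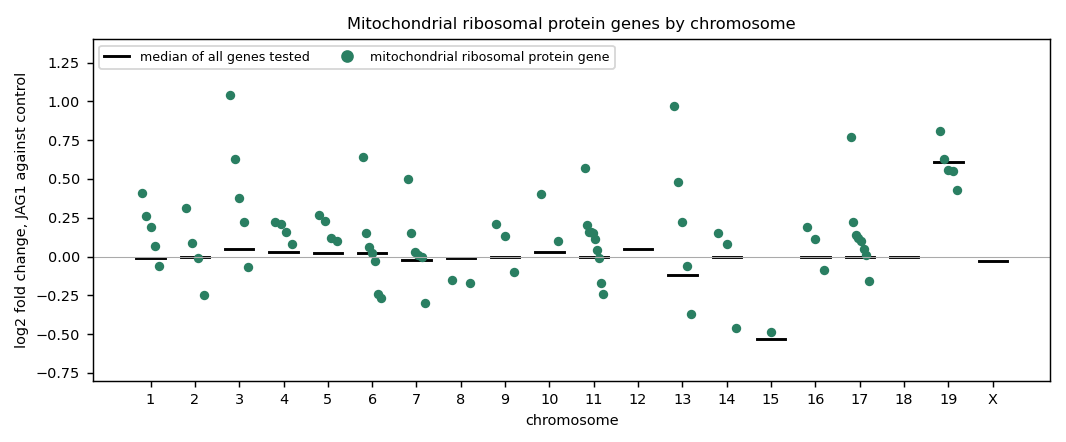
Log2 fold change of JAG1 against control libraries (y axis) of each mitochondrial ribosomal protein gene by chromosome (x axis), with black lines for the median of all genes tested on that chromosome. The 5 genes of chromosome 19 surround its median of 0.61 and Mrpl13 lies beside the median of chromosome 15, -0.53, whereas elsewhere the medians of all genes are near 0.

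Summed over all 77 genes, the transcripts took 0.728% ± 0.00778 (SD, n = 3) of the counted reads in the control libraries and 0.817% ± 0.0113 (SD, n = 3) in the JAG1 libraries. Single libraries ranged from 0.722% to 0.737% and from 0.806% to 0.829%, with no overlap. By symbol, large subunit genes summed to 4640 ± 60.7 CPM in the control and 5190 ± 101 CPM in the JAG1 libraries, 11.9% more. Small subunit genes summed to 2680 ± 73.5 and 2940 ± 31.1 CPM, 9.39% more. Neither sum overlapped between the groups. The large subunit sum holds the 5 genes of chromosome 19 and Mrpl13 of chromosome 15, and the small subunit has no gene on either. The sums were not taken without these genes, and their part in the difference between the 2 rises was not tested. Off both chromosomes the median log2 fold change was 0.12 for the large subunit and 0.09 for the small.

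The balance of the subunits moved less than either sum. Reads of large over small subunit genes give a ratio that does not depend on scaling between libraries. By symbol it was 1.70, 1.74 and 1.75 in the control libraries and 1.75, 1.77 and 1.79 in the JAG1 libraries. The ratio in control replicate 3 came up to that in JAG1 replicate 1. Reads of Mrps18a, Mrps30 and Mrps36 count here as small subunit. The ratio by place in the ribosome was not taken, so this overlap is given for the symbols only. Single genes weigh heavily in these sums. Mrps6 held 33.9% to 38.0% of the small subunit reads and Mrpl12, which also binds the mitochondrial RNA polymerase, 15.5% to 17.5% of the large subunit reads. Mrps6 was at 944 ± 56.1 CPM in the control and 1080 ± 36.3 CPM in the JAG1 libraries (log2 fold change 0.19, adjusted p = 0.0115, and 0.0521 without JAG1 replicate 1). Its exons share 305 bases with Gm49711 and 159 bases with Slc5a3 on the same strand. Mrpl12 was at 798 ± 34.5 and 823 ± 17.5 CPM (log2 fold change 0.04, adjusted p = 0.467). Mrps6 and Mrpl12 were singled out after their values were seen. Without them the ratio was 2.21 ± 0.0116 in the control and 2.35 ± 0.0401 in the JAG1 libraries, and the groups no longer overlapped. Its large subunit reads still include the genes of chromosomes 15 and 19, where the small subunit has none. They also include Mrpl53, whose reads cannot be separated from those of Gm42688. The ratio was not taken without these genes, so the gap between the groups is not read as a shift between the subunits.

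**Figure D4:**
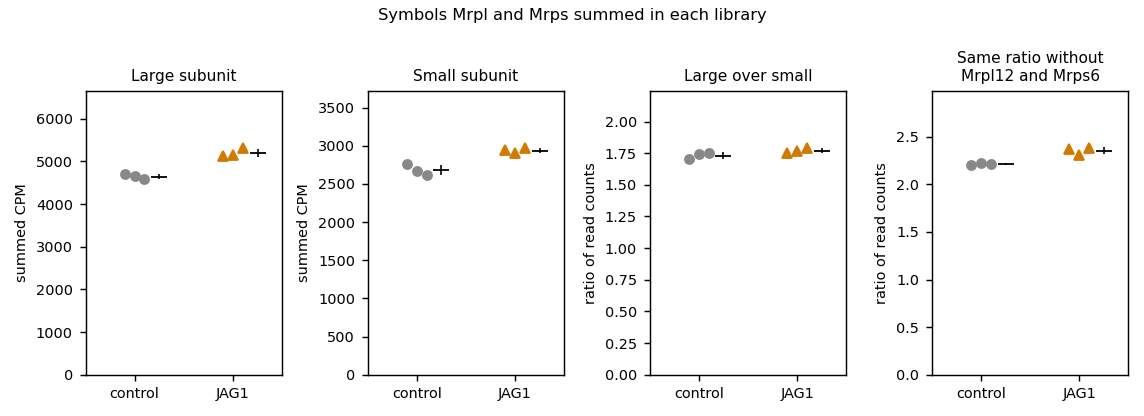
Summed CPM of the Mrpl (large subunit) and Mrps (small subunit) genes in each library, the ratio of their reads, and the same ratio without Mrpl12 and Mrps6, all on axes that start at 0, with grey circles for control libraries, orange triangles for JAG1 libraries, and black marks for the mean and SD of 3 libraries. The JAG1 libraries lie above the control libraries in both sums, meet them in the third panel and lie apart from them in the fourth (2.21 against 2.35). The large subunit reads include the genes of chromosomes 15 and 19 in every panel that shows them. Mrpl12 and Mrps6 were singled out after their values were seen, and the subunits follow the symbols in every panel.

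Calls were also counted with and without the promoter letters shown above. Of the 34 genes with NRF1, ETS or YY1 letters, 10 were higher, 4 were lower and the median was 0.11 on the log2 scale. Of the 34 genes with a window and none of the letters, 14 were higher and 4 lower, with a median of 0.15. Over all genes tested, 27.4% were higher and 27.7% lower. The letters of YY1 stood in Mrpl36, which rose, and in Mrpl32, which fell, and those of ETS in Mrpl43 and Mrps26, which rose, and in Mrpl52, which fell.

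For some of these genes, a gene on the other strand starts nearby. A protein-coding gene that starts within 1000 bases and runs the other way was found for 32 of the 77. The starts lay up to 935 bases apart, and Mrpl46 and Mrps11 were each other's partner. The same share over all genes was not counted. Starts came from GENCODE M21 and the nearest were taken, so they need not be those of the promoter windows. Of 27 pairs whose partner was tested and is itself no mitochondrial ribosomal protein gene, 3 had both genes higher, 1 had both lower and 2 had them called in opposite directions. Of the 27 partners, 6 were higher, 3 lower and 18 not called, where 27.4% and 27.7% of all genes tested were higher and lower. Off chromosomes 15 and 19, 1 of 23 pairs had both genes higher, 1 had both lower and 2 had opposite calls. Across the 27 pairs, Pearson's r of the log2 fold changes was 0.158, and 0.00227 across the 23 pairs off chromosomes 15 and 19, as a description of genes measured in the same libraries. The nearest starts of Mrpl36 and of Ndufs6, the gene of a complex I subunit, lie 29 bases apart. Ndufs6 had a log2 fold change of 0.13 (adjusted p = 0.122) beside the 0.97 of Mrpl36. Mrpl32 starts 75 bases from Psma2, a proteasome subunit, which was also lower (-0.16, adjusted p = 0.03, up to 0.142 under the alternatives). Mrpl37, at 0.16 (adjusted p = 0.0228), was paired with Cyb5rl at -0.74 (adjusted p = 0.0027), and its own call was lost under 5 of the 15 alternatives, with adjusted p up to 0.0846. In 5 of the 6 pairs with both genes called, leaving out a library ended at least 1 of the calls, the exception being Mrpl49 and Fau on chromosome 19. These pairs were named after their values were seen.

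Other genes of mitochondrial translation were listed by role from general knowledge, 86 in 5 lists, and all 86 were tested. Of these, 28 were higher (32.6%) and 10 lower (11.6%), where 27.4% and 27.7% of all genes tested were. Their log2 fold changes had a median of 0.16 and an SD of 0.70. That SD includes Ppargc1a, whose fitted 4.83 rests on 2 reads per control library, and was not taken without it. Of the 86, 4, Ppargc1a with its 2 reads per control library among them, passed the test at 2-fold or more. This stands beside 1 of the 77 ribosomal protein genes and 13.9% of all genes tested. In the lists that follow, counts stand beside that same background, and none was tested as a list.

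Mitochondrial ribosomal proteins under other symbols numbered 6, of which 5 were higher and 0 lower in edgeR's test, with a median of 0.30. None was lower at an unadjusted p under 0.05 either (0), and 0 were with DESeq2 or limma. The remaining gene, Dap3, a small subunit protein that binds GTP, had a log2 fold change of 0.01 (adjusted p = 0.872). Aurkaip1, a small subunit protein, rose from 15.8 ± 0.888 to 26.3 ± 1.74 CPM (log2 fold change 0.74, adjusted p = 2.97e-05). Gadd45gip1, a large subunit protein at the exit of the tunnel, rose from 97.1 ± 0.886 to 155 ± 9.46 CPM (log2 fold change 0.67, adjusted p = 2.22e-06).

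Of 27 genes for ribosome assembly and the modification of ribosomal RNA, 4 were higher and 5 lower, with a median of 0.09. Rbfa, which helps the small subunit RNA to mature, was at 3.51, 1.56 and 1.78 CPM in the control and at 15.1, 14.9 and 16.9 CPM in the JAG1 libraries. It rose by 2.76 on the log2 scale (SE 0.22, adjusted p = 1.19e-06), and Gtpbp6 by 0.56 (adjusted p = 0.000354). Mterf4, which guides an RNA methyltransferase to the large subunit, was at 58.7, 48.0 and 46.3 CPM against 17.4, 18.6 and 19.7 CPM. Its log2 fold change was -1.46 (SE 0.10, adjusted p = 4.12e-07), and that of Ybey, an RNA nuclease, was -0.96 (adjusted p = 1.56e-05).

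Of 16 translation factors, 6 were higher and 4 lower, with a median of 0.07. Tsfm, the exchange factor of the elongation factor Tufm, had a log2 fold change of 0.62 (adjusted p = 0.00727). Its control replicate 1, like that of Mrps28, was the lowest, at 27.8 CPM beside 41.8 and 50.5 CPM, and without it the log2 fold change was 0.41 (adjusted p = 0.000545). The release factor genes Mtrf1 and Mtrf1l had log2 fold changes of 0.57 (adjusted p = 0.00472) and -0.58 (adjusted p = 0.00376). Lrpprc, which stabilizes mitochondrial messenger RNA, was at 751, 691 and 581 CPM in the control and at 409, 355 and 339 CPM in the JAG1 libraries. The groups of Lrpprc did not overlap (log2 fold change -0.87, SE 0.09, adjusted p = 1.27e-05).

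Of 20 genes that charge mitochondrial transfer RNA with amino acids, 17 encode synthetases and 3 (Qrsl1, Gatb and Gatc) the amidotransferase that makes glutaminyl-tRNA. Of the 20, 6, all synthetases, were higher and 0 were lower in edgeR's test (0 also at an unadjusted p under 0.05, and 0 with DESeq2 or limma), with a median of 0.11. Mars2 rose from 4.38 ± 0.473 to 10.1 ± 0.424 CPM (log2 fold change 1.20, adjusted p = 1.17e-05) and Iars2 from 66.5 ± 11.7 to 113 ± 8.98 CPM (log2 fold change 0.77, adjusted p = 0.000148). Of 17 genes for the transcription of mitochondrial DNA and for mitochondrial biogenesis, 7 were higher and 1, Mterf2 (log2 fold change -0.57, adjusted p = 0.0075), was lower, with a median of 0.30. Ppargc1a, the coactivator PGC-1α that drives mitochondrial biogenesis, had 2 reads in each control library and 66, 33 and 62 reads in the JAG1 libraries. It passed the filter on low counts only through the JAG1 libraries, where it is high, yet it is counted among the 7 higher genes and the 28 of all 5 lists. The ratio of its summed reads, scaled to library size, was 30.5, with an exact 95% interval of 13.7 to 84.3 that covers counting error only. Esrra, the nuclear receptor that works with this coactivator, rose from 49.7 ± 3.51 to 90.1 ± 4.02 CPM (log2 fold change 0.86, adjusted p = 1.37e-06) and lies on chromosome 19, where the median of all genes was 0.61.

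**Figure D5:**
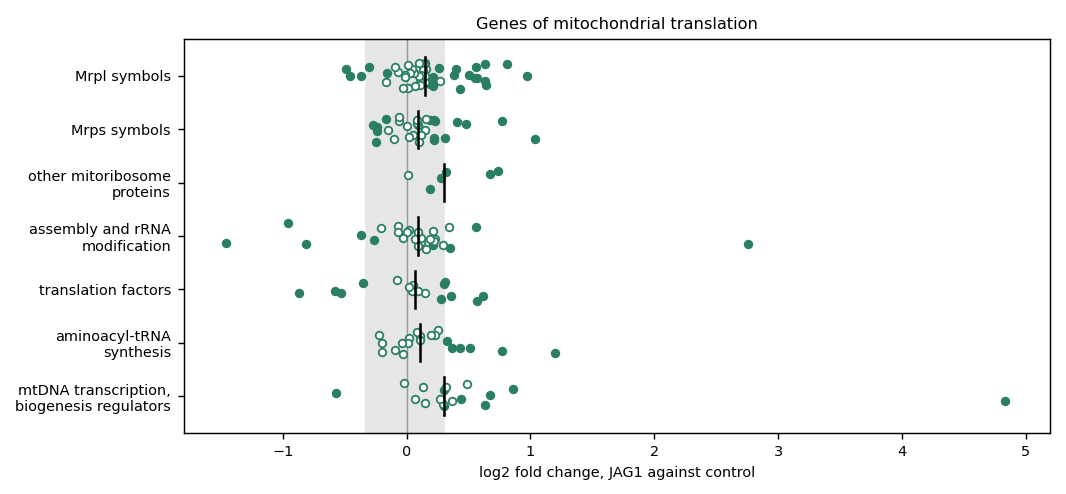
Log2 fold change of JAG1 against control libraries (x axis) of the Mrpl and Mrps genes and of 5 lists of other genes of mitochondrial translation, each point a gene, filled where it passed an adjusted p of 0.05, with a black line for each list's median, a grey line for the median and a grey band for the middle 50% of all genes tested (-0.33 to 0.30). The 77 ribosomal protein genes lie between -0.49 and 1.04, whereas Rbfa at 2.76 and Mterf4 at -1.46 lie far outside that range and the point at the far right is Ppargc1a, whose fitted value rests on 2 reads per control library.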

How the data were processed

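RNA of 3 control and 3 JAG1 libraries was measured by QuantSeq, which reads the 3' end of polyadenylated RNA. The authors deposited for each library the raw read counts of 23282 gene symbols and normalized read counts on the log2 scale. The submitters' processing notes name Bowtie2, bedtools, edgeR and GRCm38 (mm10), without versions, roles or strand setting. The normalization behind the authors' log2 values is not given in the sources used here, and these values served for an alternative only. Totals were 14341634 to 20489062 counts per library. A library's floor of 3 counts equals 0.148 to 0.206 CPM.

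The counts were analysed in R 4.3.3. In edgeR 4.0.16, 11712 genes passed filterByExpr (minimum count 10), followed by TMM scaling, the quasi-likelihood test without further terms and Benjamini-Hochberg adjustment over all genes tested, with a threshold of 0.05. Standard errors were derived from the F statistic. An exact permutation of 3 against 3 libraries cannot give a two-sided p under 0.1, so single values have no such test. No pair of libraries agreed within sampling noise.

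Symbols were matched to RefSeq GRCm38.p6 (22059 symbols, 1071 synonyms), which also gave the promoter windows. Exon overlaps came from GENCODE M21, of the same build, and touched 25 of the 77 genes, not all of which are noted above. Genes named from the ribosomal proteins were the 5 largest called rises and falls of each subunit by symbol, those on chromosomes 15 and 19, and those whose symbol and place differ. Of each other list, up to 2 called genes in each direction were named. The genes, lists and rules were chosen with earlier results of these data known. Alternatives were DESeq2 1.42.0, other scalings and filters, limma 3.58.1, a replicate block, a fold limit and leaving out each library. The script was tested on simulated data.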

Additional observations from a re-analysis of the deposited data

How the results depend on the processing

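For Jag1 and the genes named by the rule, 623 repeated tests over 15 alternatives stayed on the same side of the threshold, 22 lost a call and none reversed. Mrps6 and Mrpl37, named later, lost theirs under 1 and 5 alternatives. Of the 77 genes, 21 to 27 were higher without 1 library and 26 to 34 under other scalings, filters and tools (34 with library size alone). Leaving out each library in turn gave 6 to 10 lower genes (6 without JAG1 replicate 1), 3 to 5 in the large subunit (3 without JAG1 replicate 2) and 2 to 5 in the small (2 without JAG1 replicate 1), and a large subunit median of 0.11 (without JAG1 replicate 3) to 0.17. A limit of 1.5-fold left 7 higher and 0 lower. With subunits taken by symbol, the log2 difference of the large over small ratio, JAG1 against control, was 0.032 by summed reads (0.020 to 0.041 without 1 library). It was 0.101 by the median of log2 CPM and, chosen after seeing the data, 0.091 without Mrpl12 and Mrps6. The cause of these moves was not tested beyond the fewer libraries, the fold limit or the genes left out.

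Replicate numbers of the labels were not taken to pair the samples, since same-numbered deviations correlated at 0.185, 0.0591 and 0.129, although each library correlated best with its own number. With the replicate block, 31 of the 77 genes were higher and 10 lower. Of the 86 other genes of mitochondrial translation, 24 to 32 were called higher and 9 to 10 lower across the alternatives. With 3 libraries per group and a biological coefficient of variation of 0.077, small changes near the threshold, such as those of Mrps23 and Mrps36, depended on single libraries.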
